A study of Drosophila melanogaster with 4 samples.

Results

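The regions described here are the isolated peaks with a score of at least 25 on the chromosome arms of a Drosophila melanogaster embryo ChIP-seq peak list. There were 275 of them among 9485 peaks in the whole list and among 1668 on the 6 arms (2L, 2R, 3L, 3R, 4 and X). They were chosen by 2 values in the list itself, the score of the peak, which had to reach 25, and the gap to the peaks beside it, which had to be over 500 bp on both sides. Score and gap therefore describe the set and are not findings about it, and no test was made on either.

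ChIP-seq (chromatin immunoprecipitation followed by sequencing) recovers DNA fragments crosslinked to a protein, and a peak is a stretch where a peak caller found more fragments than its background model allows. The series had 2 ChIP and 2 input libraries. All 4 carried nonISO1 in their titles, and shared the strain Hr46-GFP, the genotype PBac{y[+]-attP-3B}VK00033, a transgene with the genomic coding region of Hr46 and the stage label Embryo 0-8, with sex unknown, so that by the labels ChIP and input differed only in the precipitation. Each library was made from whole embryos, in which many tissues are mixed, and a peak cannot be assigned to a cell type. The protocol text names other flies (y; bw cn sp) and another egg-laying window.

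The labels name 3 different proteins, and the peaks are not assigned to any of them. The antibody, a mouse monoclonal, was listed against tango, the titles name TCF and the strain names Hr46. Tango is the common partner of the basic helix-loop-helix PAS proteins, and with Single-minded or Trachealess it controls genes of the central nervous system midline and the trachea. TCF (pangolin) binds DNA for the Wingless pathway and turns its targets on when armadillo joins it. Hr46 is an orphan nuclear receptor of the ecdysone cascade, which times moulting and metamorphosis.

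All values come from 1 peak list for the whole series, so no value carries an error between replicates, and read depth is unknown. The score is the one the authors deposited, in a list whose headers give the peak caller MACS as the source. Its scale is not stated, and it serves here to rank peaks within the list. Positions are on FlyBase release 5. Genes at these positions are not named, because neither sequence nor annotation of that release was used here.

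The 275 peaks covered 174 kb in all, or 13.6% of the DNA under arm peaks. They made up 16.5% of the arm peaks, 36.4% of the 755 isolated arm peaks and 71.2% of the 386 arm peaks that scored 25 or more. Their scores ran from 25.09 to 871.37 with a median of 58.1 (interquartile range 33.7 to 96.5). By the rule, all these scores lay above the upper quartile of all arm peaks, which was 24.2. They were not uniformly high for the list, whose median was 42.3. Of the 275 peaks, 94 (34.2%) scored below that median, and 130 were in the highest 25% of the list. At the top, 56 of the 275 were among the 100 highest scores of the list, and 33 of the 51 peaks of 200 or more belonged to them.

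Most of the set lay well below its highest values. There were 48 peaks (17.5%) with a score from 25 to under 30, 72 (26.2%) from 30 to under 50, 87 (31.6%) from 50 to under 100, 35 (12.7%) from 100 to under 200 and 33 (12.0%) of 200 or more. The scores thinned out towards the top. The largest step above 100 was from 576.03 to 755.11, leaving 2 peaks above it. A smaller step, from 246.33 to 281, left 26 peaks above it. Identical scores were frequent, since 147 of the 275 peaks shared their score, to its 2nd decimal as deposited, with at least 1 other peak of the set, and the 275 peaks held 187 distinct values.

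The limit of 25 fell in a stretch of the list without a break. Just inside it, 3 peaks shared the score 25.09, one on 2R from 17096148 to 17096853 and the others on X, from 6672053 to 6672414 and from 8287598 to 8288067. Just outside it, 3 isolated peaks shared the score 24.74. They lay on 3R, from 21662446 to 21667411 and from 24905535 to 24905916, and on X from 8544998 to 8545241. The set held 12 peaks under 26. The gap limit also cut through a continuous range. The smallest gaps inside it were 521 bp, beside a peak on 2L from 22412926 to 22415865 (score 53.39), 587 bp, beside one on X from 8822833 to 8823541 (39.34), and 600 bp, between a pair on 3L from 8013124 to 8017038 (41.11 and 33.11). The largest nearest gaps among peaks of 25 or more that were left out were 470 bp, for a peak on X from 13951714 to 13952350 (34.49), and 458 bp, between neighbours on 2L from 21485803 to 21487278 (29.71 and 25.55).

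The gap rule removed 111 arm peaks that reached the score. Of these, 36 lay in runs of 5 or more peaks and 75 in groups of 2 to 4, taking peaks at most 500 bp apart together. Their scores were close to the limit, at a median of 27.4 and no higher than 55.88. They were wide, at a median of 1414 bp and quartiles of 760 and 2275 bp. The 275 isolated peaks were 528 bp wide at the median, with quartiles of 425 and 681.5 bp. No test was made of this difference.

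The plot of width against score for all arm peaks shows how the isolated peaks lie beside the others. In the runs and the groups of 2 to 4, Spearman's rho between score and width was 0.70 and 0.67. It was 0.27 among all 275 isolated peaks of 25 or more and 0.39 among the isolated peaks under 25. Among the isolated peaks of 50 or more it was 0.21, with median widths of 514, 612 and 620 bp in their 3 score classes. Runs and groups ended at scores of 34.97 and 55.88. The coefficients thus cover unlike score ranges, and their difference was not tested.

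**Figure D1:**
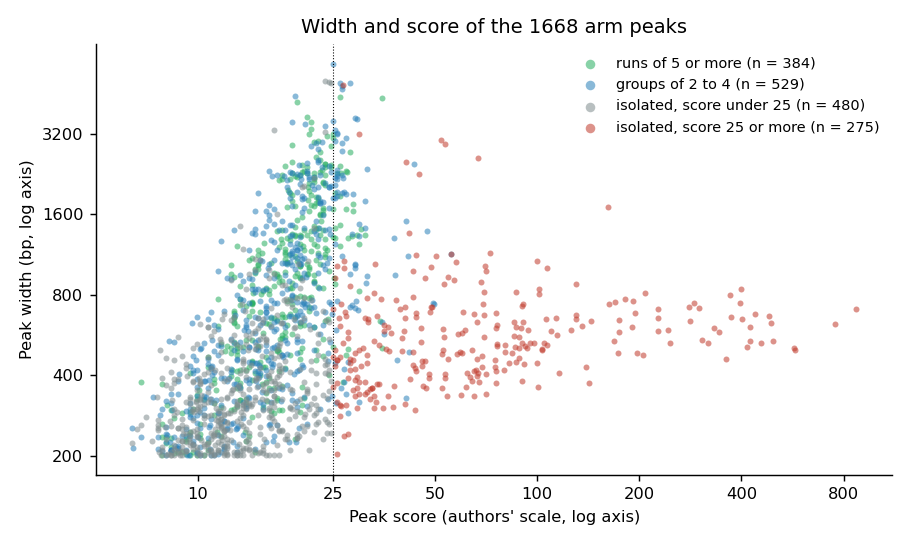
Width in bp (log axis) against the deposited score (log axis) of the 1668 arm peaks, 1 point per peak, coloured by class. The dotted line marks the score limit of 25. The 275 isolated peaks of 25 or more extend to the right as a band with a median width of 528 bp, while the 384 peaks in runs and 529 in groups of 2 to 4 end at scores of 34.97 and 55.88.

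Width was not part of the rule, although it comes from the same peak calling. Of the 275 peaks, 180 (65.5%) were 400 to 800 bp wide, 5 (1.82%) were narrower than 300 bp and 22 were wider than 1000 bp. The 480 isolated arm peaks under 25 were 309 bp wide at the median, with quartiles of 242 and 426 bp, and 227 of them (47.3%) were narrower than 300 bp, while 16 were wider than 1000 bp. No arm peak was narrower than 201 bp, so many of these 480 lay close to the smallest width found on the arms. Peaks in groups of 2 to 4 had a median width of 631 bp and peaks in runs of 825 bp. No test of these differences was made, because the peaks of 1 list are not replicates and the caller sets width and score together.

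The spread of widths was smallest at the highest scores. Between 25 and 30 the median width was 457 bp with a range of 203 to 4884 bp. It was 504.5 bp (297 to 2500 bp) from 30 to under 50, 514 bp (335 to 3044 bp) from 50 to under 100 and 612 bp (361 to 1705 bp) from 100 to under 200. At 200 or more it was 620 bp, and all 33 widths lay between 461 and 842 bp. The interquartile range was 265.5 bp in the lowest of these classes, 314 bp in the next, then 222 and 234 bp, and 170 bp in the highest. The 3 lower classes held 48 to 87 peaks and the upper ones 35 and 33, and a range widens with the number of peaks, which an interquartile range does not.

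**Figure D2:**
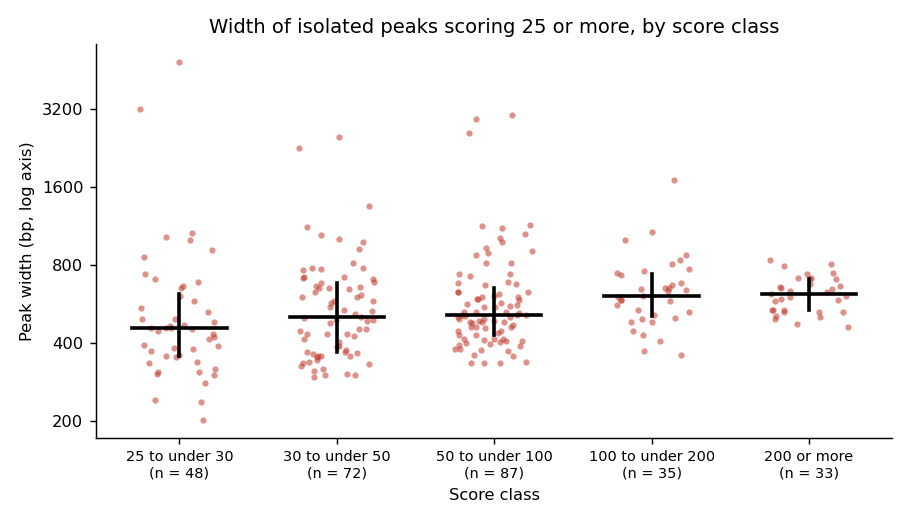
Width in bp (log axis) of the 275 isolated peaks by score class, 1 point per peak; horizontal bars are medians and vertical bars interquartile ranges over peaks. Medians go from 457 bp in the class of 25 to under 30 to 620 bp in the class of 200 or more, where all points lie between 461 and 842 bp.

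Score and width of the 275 peaks had a Spearman's rho of 0.27. It was -0.14 among the 33 peaks of 200 or more and 0.39 among the 480 isolated peaks under 25. The points share 1 list and 1 caller, and the sets are cut on the score, so these coefficients are descriptions of the list.

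The widest peaks were not the strongest. The 22 peaks wider than 1000 bp scored from 25.78 to 161.47, with a median of 49.5, and none of them reached 200. The widest was a 4884 bp peak on 2R from 9981172 to 9986055 with a score of 26.79. It was followed by a 3202 bp peak on X from 1637004 to 1640205 (29.92) and a 3044 bp peak on 2L from 21020722 to 21023765 (52.27). Of the 22, 5 had another peak within 1000 bp, against 8 of all 275, so most of the closely flanked peaks in the set were wide ones. Their median gap to the nearest peak was 16.7 kb. By arm, 6 lay on 2L, 5 on 2R, 4 each on 3L and X and 3 on 3R. The narrowest peaks were 203 bp on 2L from 11189126 to 11189328 (25.81), 238 bp on X from 3637608 to 3637845 (26.91) and 242 bp on X from 6894891 to 6895132 (27.65). All 3 lay close to the score limit.

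The widths of the 20 highest-scoring peaks ran from 461 to 842 bp, and 16 of the 20 had no other peak within 10 kb. By arm, 3R held 8 and 3L held 4, while 3 each were on 2L and 2R, 2 on X and 0 on 4. The score of the nearest other peak ranged from 7.66 to 227.58 with a median of 23.3. It was under 100 for 19 of the 20 and under 25 for 11, where 95.9% and 76.9% of all arm peaks scored under these values. Of the 755 isolated arm peaks, 480 scored under 25.

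Each arm's highest peak can be set beside its neighbours. On 3R the highest score, 871.37, belonged to a 707 bp peak from 7604012 to 7604718. Its neighbours were 390302 bp to the left (score 16.5) and 141642 bp to the right (7.66), both of them weak. On 3L a 620 bp peak from 18178744 to 18179363 scored 755.11, with a peak of 9.23 at 129064 bp on one side and a strong one of 227.58 at 38596 bp on the other. On X a 499 bp peak from 2031141 to 2031639 scored 576.03. A peak of 29.15 lay 3758 bp to its left and one of 9.94 lay 31295 bp to the right.

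On 2L a 505 bp peak from 480831 to 481335 scored 570.01 between 2 other peaks of the set, one of 45.81 at 39530 bp and one of 86.71 at 40556 bp. On 2R a 630 bp peak from 6158586 to 6159215 scored 488.54, and its neighbours, 52.74 at 43043 bp and 76.18 at 205367 bp, also belonged to the set. The highest of the small chromosome 4 was far weaker. It was a 335 bp peak from 1133780 to 1134114 with a score of 65.11, with a peak of 44.02 at 132302 bp and one of 11.72 at 152667 bp.

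The other 15 of the 20 highest lay as follows. On 3R they were the peaks from 21463118 to 21463654 (494.37), 24983267 to 24983932 (481.99), 11054995 to 11055524 (457.61), 9809163 to 9809672 (416.21), 13220230 to 13220972 (395.12), 22624006 to 22624804 (369.2) and 19934661 to 19935243 (342.81). The 8 peaks of 3R among the 20 highest were at least 1.16 Mb apart. On 2R they were the peaks from 10195031 to 10195708 (438.43) and from 9453601 to 9454139 (423.58). On 3L they were the peaks from 17998010 to 17998617 (423.58), 5969365 to 5969825 (359.46) and 3394753 to 3395355 (332.41). The first of these lay within 200 kb of the 755.11 peak, and its score equalled that of the latter peak on 2R. On 2L they were the peaks from 9956591 to 9957432 (397.94) and from 6918698 to 6919357 (371.87), and on X the peak from 17986681 to 17987328 (402.49). The last had no peak for 510351 bp on its left, where the next score was 48.09.

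Around the isolated peaks as a whole, the median gap to the nearest other arm peak of any score was 44.7 kb (interquartile range 15.9 to 97.9 kb), and the longest was 505 kb. The 480 isolated peaks under 25 had a median gap of 19.0 kb (1.61 to 66.5 kb). Another peak lay within 5 kb of 23 of the 275 peaks (8.36%) and of 179 of the 480 (37.3%). It lay within 50 kb of 53.5% and 69.6%. At the far end, 24.7% of the 275 and 16.2% of the 480 had no other peak within 100 kb. The rule set the smallest gap, 500 bp, for both sets alike, and no test was made of the difference.

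**Figure D3:**
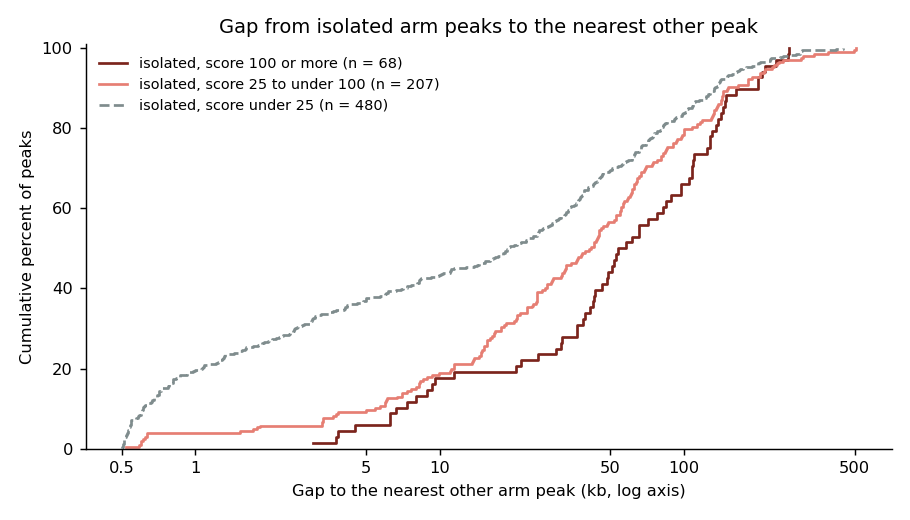
Cumulative percent of peaks against the gap to the nearest other arm peak in kb (log axis) for isolated peaks of 100 or more, of 25 to under 100 and under 25. At 5 kb the curves of the scores of 25 and above are still under 10%, while the dashed curve of the 480 weaker isolated peaks stands at 37.3%.

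Within the set, the median gap was 55.8 kb for the 68 peaks of 100 or more and 41.6 kb for the 207 under 100, and the smallest gap beside a peak of 100 or more was 3.03 kb. Score and gap were only weakly related across the 275 peaks (Spearman's rho 0.13), and width and gap were not related in rank (rho -0.02). Both coefficients are descriptions over peaks of 1 list. By score class, another peak lay within 5 kb of 12.5% of the peaks from 25 to under 30, 9.72% of those from 30 to under 50, 6.90% of those from 50 to under 100, 5.71% of those from 100 to under 200 and 6.06% of those of 200 or more. The last 2 shares rest on 2 peaks each.

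The nearest peak was usually another isolated one. It belonged to the set itself for 111 of the 275 (40.4%), was an isolated peak under 25 for 115 (41.8%), lay in a group of 2 to 4 for 32 (11.6%) and in a run of 5 or more for 17 (6.18%). Of all 1668 arm peaks, 275 were in the set, 480 were isolated under 25, 529 lay in groups and 384 in runs. Groups and runs hold several peaks in 1 place, so these class sizes are no like reference, and no test was made. The median score of the nearest peak was 21.9. Of the 68 peaks of 100 or more, 4 (5.88%) had a nearest peak of 100 or more. Such peaks made up 4.08% of all arm peaks, which is no like reference either. All of them were isolated, so that they were 68 of the 755 isolated arm peaks. The closest pair of peaks of 100 or more lay on 2L from 19219373 to 19219856 (197.34) and from 19226147 to 19226798 (129.9), 6290 bp apart.

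Between neighbours of the set itself, the median distance from midpoint to midpoint was 291 kb (interquartile range 92.3 to 629 kb, 269 distances). Only 5 distances were within 5 kb and 13 within 10 kb, while 70 (26%) were within 100 kb and 27 were over 1 Mb. The closest pair by midpoints (1675 bp) lay on 3L. There a 1023 bp peak from 16012084 to 16013106 (70.31) and a 1058 bp peak from 16013741 to 16014798 (57.59) were separated by 634 bp. The next by midpoints (2258 bp), also on 3L, was the pair from 8013124 to 8017038 already named at the gap limit. Its gap was shorter, with 600 bp between a 2500 bp and an 815 bp peak.

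The other close pairs were narrower and further apart. On X a 632 bp peak from 17471970 to 17472601 (90.7) lay 3322 bp from a 406 bp peak of 48.09. On 3L a 718 bp peak from 3380513 to 3381230 (49.01) lay 3293 bp from a 603 bp peak of 75.64, and the next peak to the right of that pair, 9626 bp on, was the one of 332.41 from 3394753 to 3395355. On 3R a 644 bp peak from 20999790 to 21000433 (174.13) lay 3829 bp from a 372 bp peak of 34.25. In none of these 5 pairs did another peak lie between the 2.

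On the 5 long arms, the number of isolated peaks of 25 or more was similar, ranging from 46 on 2R and 50 on 3L through 58 on both 2L and 3R to 60 on X. Per Mb between the outermost arm peaks, X (2.68) and 2L (2.56) carried more than 2R (2.18), 3R (2.08) and 3L (2.05). Chromosome 4 held 3, or 4.08 per Mb over a span of 0.735 Mb. Their share of the isolated peaks of an arm ranged from 32.1% on 3L to 42.6% on X.

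The mix of scores differed more than the number. On X the median score was 44.5, 7 of 60 peaks (11.7%) reached 100 and 33 (55%) were under 50. On 2L, 2R, 3L and 3R together the median was 62.9 and 61 of 212 peaks (28.8%) reached 100. Taken singly, those arms had median scores of 59.4 to 73.0, and from 21.7% (2R) to 36% (3L) of their peaks reached 100. Per Mb, peaks of 100 or more numbered 0.312 on X and 0.473 to 0.737 on the other long arms, while peaks under 50 numbered 1.47 on X and 0.696 to 1.01 there. Among the long arms, X therefore had the lowest density of peaks of 100 or more and the highest of peaks from 25 to under 50. No test was made of this comparison. It does not extend to the isolated peaks under 25, which numbered 81 on X and 77 to 112 on the other long arms. The median width was also lowest on X, at 485 bp, against 526.5 to 563 bp on the other long arms.

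**Figure D4:**
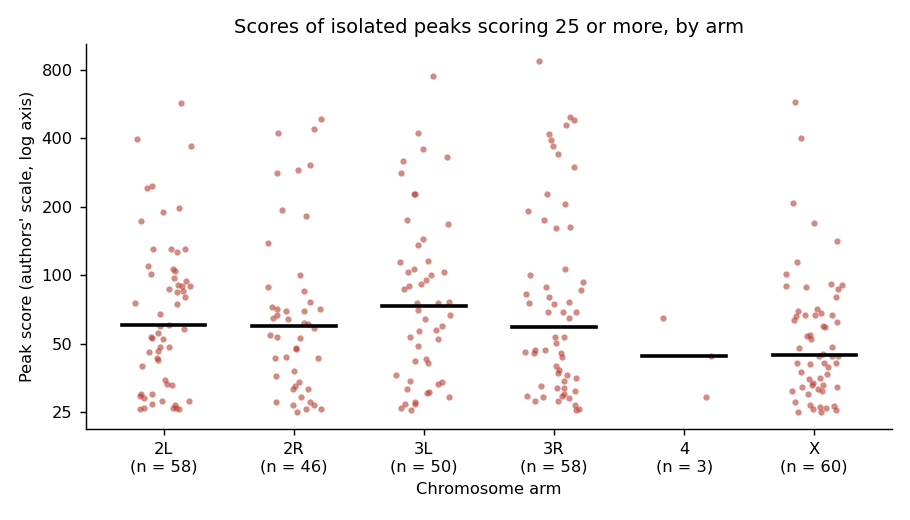
Deposited scores (log axis) of the 275 isolated peaks by chromosome arm, 1 point per peak, with the median as a bar. The median on X is 44.5 and those of the other long arms are 59.4 to 73.0; the 3 peaks of chromosome 4 score 65.11 or less.

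Peaks of 200 or more numbered 11 on 3R and 8 on 3L, then 6 on 2R, 5 on 2L, 3 on X and 0 on 4. The upper quartile of scores on 3R, 148, was above that of every other arm (54.6 to 115), although its median of 59.4 was close to those of 2L (60.3) and 2R (59.9). On chromosome 4 the 3 peaks were the one of 65.11 already given, a 662 bp peak from 1000816 to 1001477 (44.02) and a 384 bp peak from 724866 to 725249 (29.09).

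Along the long arms, the isolated peaks were spread over the whole span. Counted in steps of 10% of the span from the telomere to the centromere side, the 5 long arms together held between 21 and 37 of 272 peaks per step, with 37 in the first and 23 in the last. The last step, the 10% of the span nearest the centromere, held 8.46% of them, against 24.1% (114 of 474) of the isolated peaks under 25. On 2L the shares were 15.5% (9 of 58) and 46.4% (52 of 112). They were 2.17% and 24.7% on 2R, 2.00% and 19.8% on 3L, and 6.67% and 12.3% on X. On 3R they were 13.8% and 12.2%, so the direction was not the same on every arm. No test was made of this contrast.

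Weaker and stronger peaks of the set were placed differently on some arms. Of the 118 peaks under 50 on the long arms, 72 (61%) lay in the 50% of the span on the telomere side. Of the 68 of 100 or more, 28 (41.2%) did, and of the 474 isolated peaks under 25, 200 (42.2%) did. The share thus did not rise steadily as the score fell, and no test was made. On X, 24 of 33 peaks under 50 lay on the telomere side, and so did 3 of the 7 of 100 or more. On 2R, 11 of 19 peaks under 50 lay there, but 1 of 10 of 100 or more. The counts were 16 of 23 and 9 of 16 on 2L and 9 of 17 and 7 of 18 on 3L. On 3R both sets were divided nearly evenly, with 12 of 26 and 8 of 17. The median score in steps of 10% ran from 44.9 in the fifth step to 88.1 in the seventh.

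**Figure D5:**
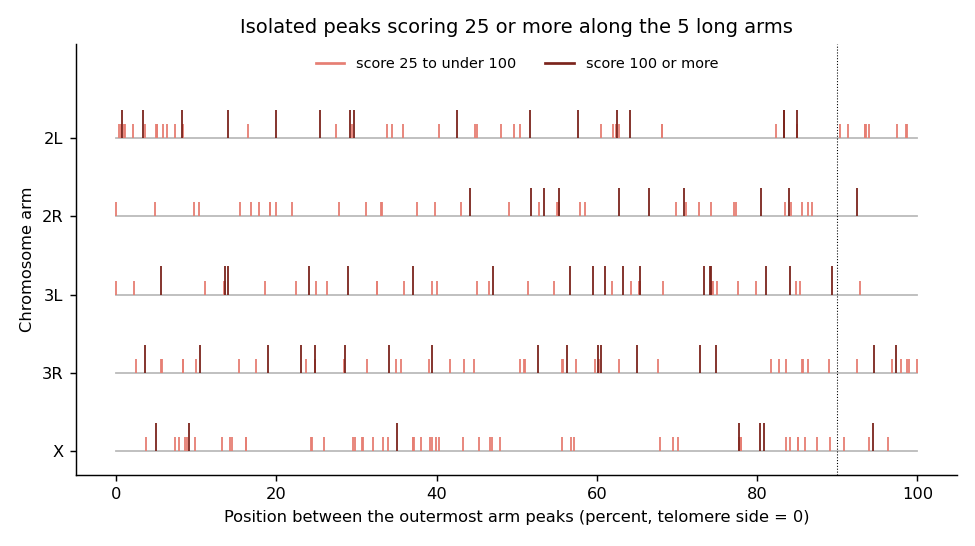
Position of the isolated peaks on the 5 long arms, as percent of the span between the outermost arm peaks with the telomere side at 0, 1 line per peak; tall dark lines are scores of 100 or more and the dotted line marks the 10% of the span nearest the centromere. That part holds 23 of the 272 peaks, 4 of them with a score of 100 or more.

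Near the centromere of 2L the set met the densest stretch of arm peaks. The window of 1 Mb from 21000001 to 22000000 held 96 arm peaks, of which 5 belonged to the set. Of these, the peaks from 21490874 to 21491529 (26.06), 21506142 to 21506668 (26.77) and 21535680 to 21536371 (27.14) were near the score limit, and the peak from 21619102 to 21619518 scored 80.01. The last of the 5 was the 3044 bp peak of 52.27 named above. On 3R, the corresponding 10% held 8 peaks, which ranged from 25.45 to 191.45, and those of 100 or more were a 1705 bp peak from 800376 to 802080 (161.47) and a 761 bp peak from 1561807 to 1562567 (191.45).

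Peaks of the set were also counted in fixed windows of 1 Mb, without a test against random placement. Of 123 windows, 17 (13.8%) held none, 32 held 1, 27 held 2 and 22 held 3, and the highest number was 8. That window lay on 2L from 1000001 to 2000000. Its peaks started at 1075644 (score 189.99), 1135699 (28.77), 1426664 (75.09), 1456182 (40.09), 1473458 (42.26), 1643132 (34.65), 1737025 (67.65) and 1981529 (60.56). They were 353 to 772 bp wide, 1 of them reached 100, and the smallest distance between neighbours was 16725 bp from end to start. The window beside it, from 1 to 1000000, held 6 and included the peak of 570.01, so the first 2 Mb of 2L held 14 of the 58 peaks of that arm.

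The next fullest window, on X from 8000001 to 9000000, held 7 peaks, and its highest score was 52.29, on a 482 bp peak from 8942517 to 8942998. Its peaks were thus all weak members of the set, whereas the 6 on 2R from 9000001 to 10000000 included the peak of 423.58 and the 5 on 3R from 11000001 to 12000000 the one of 457.61. In the last of these windows the set made up 5 of 9 arm peaks. On X, the window from 17000001 to 18000000 held 5 arm peaks, all of the set, with a highest score of 402.49.

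The longest stretch without an isolated peak of 25 or more was on 2L from 15751622 to 18965559 (3.21 Mb). It was not empty, since it held 27 other arm peaks, the highest at 28.4. On X, a stretch of 2.41 Mb from 12800137 to 15206450 held 42 other arm peaks with scores up to 41.08. On 3R, 1.89 Mb from 5166564 to 7052097 held 7 others, none above 13.05, and ended at a peak of 300.08 from 7052098 to 7052812. On 3L and 2R the longest such stretches lay at the centromere side, between the outermost arm peak and the first peak of the set. They were 1.76 Mb on 3L, from 22737767 to 24497981 with 52 other arm peaks of up to 38.78, and 1.58 Mb on 2R, from 150 to 1578247 with 27 others of up to 31.34.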

How the data were processed

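Chromatin of Drosophila melanogaster embryos was sequenced in 2 ChIP and 2 input libraries. The authors deposited 1 peak list with a score and coordinates per peak. Per the file headers, the latter are on FlyBase release 5 and MACS is the source. CASAVA 1.7.0.2, CASAVA 1.7.0.3, BWA, MACS2 and the build BDGP5 stand in the submitters' processing notes without roles. The scale of the score, the calling threshold, the use of the input and any pooling of replicates are not stated in what was used here.

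Coordinates are 1-based. Arm peaks were sorted by start, gaps were taken as the next start minus the previous end minus 1, and width as end minus start plus 1. The rule was tested on simulated data with planted isolated peaks. No test was planned or run. The set, its limits and the score classes were chosen with earlier results of these data known. Named peaks are the 20 highest, the highest of each arm, those at the limits, the widest and narrowest, the closest pairs and those of the fullest window; others were named after their values were seen. Motif content and sequences need release 5 sequence and were left out. Alternatives were other score and gap limits and leaving out each arm. Further ones were windows of 500 kb, the twentieth of the span, distances between peak ends and Pearson's r of log2 values. The software was matplotlib 3.10.9, scipy 1.17.1, pandas 2.3.3 and numpy 2.4.6 under Python 3.11.15.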

Additional observations from a re-analysis of the deposited data

How the results depend on the processing

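No paired analysis was possible because the single peak list carries no replicate numbers. Leaving out any 1 of the 6 arms moved none of the 8 summary values beyond the 95% interval of the full set, taken over peaks (for the 2 counts, beyond 1.5 times). Each of these subsets kept at least 215 of the 275 peaks, so the values had little room to move. The number of peaks could not have moved beyond 1.5 times. The intervals also treat peaks as independent, so this is a description and no check by replicates. The score limit mattered most. At a limit of 50 the 275 peaks became 155, the median score of 58.1 became 90.1, the median distance between neighbours of 291 kb became 563 kb and the fullest 1 Mb window held 5 peaks instead of 8. At 100 these values were 68, 195, 1158 kb and 3, the median width of 528 bp became 616 bp, the median gap of 44.7 kb became 55.8 kb and rho of score and width, 0.27, became 0.02. At 20 the median score was 45.2 and the median distance 223 kb. With a gap limit of 200 bp rho was 0.09, and Pearson's r of log2 values was 0.15. The twentieth of the span nearest the centromere held 3.68% of the peaks, against 8.46% in the tenth, and windows of 500 kb held at most 5. A stricter score limit shrinks the set by construction. The cause of the change in rho was not tested. Peaks are not replicates, read depth is unknown, and the planned motif content was not run.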
